A study of Mus musculus with 8 samples.

Results

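Mitochondrial ribosomal protein genes encode the protein subunits of the mitoribosome, the ribosome that works inside mitochondria. Their members were taken from the deposited table by symbol, as every row whose symbol starts with Mrpl or Mrps followed by a digit, pseudogene symbols excluded. The rule found 78 genes among 22013 rows, 49 with a large-subunit symbol (Mrpl) and 29 with a small-subunit symbol (Mrps). All 78 passed the filter on low counts, which left 10748 genes of the whole table for testing. RNA-seq was performed on the RAW264.7 line, which behaves like mouse macrophages and was transformed by a leukaemia virus. There were 4 libraries from cells given PBS and 4 from cells given rFSTL1, recombinant follistatin-like 1 (a secreted glycoprotein), at 100 ng/mL for 24 h. The labels name no genetic change in either group, and both groups are of this 1 cell line. The sources used here do not say whether the 4 libraries of a group came from separate cultures, so the p-values measure the spread between these libraries, which may be technical.

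As background, the mitochondrial genome encodes the ribosomal RNAs and a small set of respiratory chain proteins, while all mitoribosomal proteins are encoded in the nucleus, translated in the cytosol and imported. The small subunit binds the messenger RNA and holds the decoding centre, and the large subunit joins the amino acids and passes the growing chain through its exit tunnel towards the inner membrane. Macrophages need this machinery to make their core oxidative phosphorylation subunits, and mitochondrial metabolism is known to shift when macrophages are activated. Many of the proteins have a bacterial counterpart, and the others exist only in mitochondria.

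Total counts were 15183118 to 20234477 in the PBS libraries and 15062023 to 19260960 in the rFSTL1 libraries. The chi-square distance per degree of freedom over genes was 3.05 to 4.23 between PBS libraries and 4.52 to 19.1 between rFSTL1 libraries. The closest rFSTL1 pair was replicates 3 and 4, near the PBS range, and the most distant was replicates 2 and 4. The cell label was checked against marker lists. The 10 macrophage markers summed to 4706 to 4854 CPM (counts scaled to the library total) under PBS and 4703 to 4985 under rFSTL1, and 1 of the 10 had at most 10 counts. The endothelial list summed to at most 3.34 CPM in any library, and the hepatocyte, fibroblast and lymphocyte lists to at most 1.31, 1.03 and 0.26 CPM. All CPM values below were instead scaled to the library's total over the tested genes, multiplied by a normalization factor (TMM). In bulk RNA, a difference in the number of cells of a type and in the RNA per cell cannot be told apart.

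Promoter windows were matched for 69 of the 78 members, in 75 windows of 300 bases (250 before and 50 after the transcript start, from RefSeq on GRCm38.p6). They were searched on both strands for the core letters of 5 motifs. The ETS core CCGGAAG, the class bound by GABP (nuclear respiratory factor 2), was found in 34.7% of the member windows, in 8.86% of all 32851 windows and in 19.2% of the windows of tested genes. The letters AAGATGGC, a core of YY1 sites, were found in 16% of the member windows and in 2.75% of all windows and 4.91% of those of tested genes. The NRF1 palindrome, GCGCA joined to its reverse complement, was found in 4%, 0.971% and 2.29% of them. GGGCGG, the SP1 core, was found in 52% of the member windows, between its shares in all windows (35.7%) and in windows of tested genes (63.3%). The E-box CACGTG was found in 9.33%, 7.15% and 10.2%. These letter matches describe the sequences and are not evidence of binding.

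A pair of promoters is printed to show the ETS core, from the first members in order of the number of ETS cores in the 150 bases shown, 120 before the start and 30 after it. Capitals mark every match to the 5 motifs on either strand, and matches may overlap. The Mrpl43 sequence (chr19:45006413-45006562, minus strand) holds 2 ETS cores and 1 SP1 core, and the Mrpl52 sequence (chr14:54426789-54426938, plus strand) holds 2 ETS cores, read on its opposite strand.
Mrpl43: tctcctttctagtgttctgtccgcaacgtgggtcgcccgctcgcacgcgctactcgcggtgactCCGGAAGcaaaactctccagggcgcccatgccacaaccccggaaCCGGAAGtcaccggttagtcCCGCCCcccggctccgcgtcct
Mrpl52: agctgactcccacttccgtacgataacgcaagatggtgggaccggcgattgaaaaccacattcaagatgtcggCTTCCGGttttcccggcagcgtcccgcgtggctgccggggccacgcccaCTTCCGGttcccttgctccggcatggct

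The same stretch is printed for 4 members that the results turn on. Mrps24 (chr11:5707672-5707821, minus strand) had the highest fitted fold change, Mrpl14 (chr17:45686229-45686378, plus strand) and Mrps33 (chr6:39810907-39811056, minus strand) did not overlap between the groups, and Mrpl1 (chr5:96209995-96210144, plus strand) had the lowest fold change. In these stretches only SP1 cores were found, 2 in Mrps24, 2 in Mrpl14, 1 in Mrps33 and 1 in Mrpl1.
Mrps24: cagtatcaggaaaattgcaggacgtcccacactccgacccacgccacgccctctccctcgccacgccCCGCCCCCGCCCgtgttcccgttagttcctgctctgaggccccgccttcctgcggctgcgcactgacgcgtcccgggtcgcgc
Mrpl14: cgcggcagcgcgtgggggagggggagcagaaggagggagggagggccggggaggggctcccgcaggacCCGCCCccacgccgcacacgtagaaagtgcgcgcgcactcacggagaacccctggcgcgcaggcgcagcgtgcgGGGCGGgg
Mrps33: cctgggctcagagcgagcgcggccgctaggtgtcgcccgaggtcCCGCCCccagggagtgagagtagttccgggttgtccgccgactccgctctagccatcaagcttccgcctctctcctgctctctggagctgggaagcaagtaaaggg
Mrpl1: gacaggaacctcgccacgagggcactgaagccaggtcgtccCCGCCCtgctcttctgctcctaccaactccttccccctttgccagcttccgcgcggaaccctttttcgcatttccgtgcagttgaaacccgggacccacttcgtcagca

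The first comparison asked whether rFSTL1 altered the RNA level of mitoribosomal protein genes. No member passed the test. With edgeR's quasi-likelihood test, 0 of 78 had an adjusted p under 0.05, and the lowest was 0.133, of Mrps24. Over all tested genes 0.344% passed, or 37 genes. At an unadjusted p under 0.05, 12 members (15.4%) were higher under rFSTL1 and 0 were lower, where 8.29% and 7.56% of all tested genes were. DESeq2 called 1 member, Mrps24, where it called 2.49% of the genes it gave an adjusted p, and it gave none for 2 members. When limma voom was run with a quality weight for each library, it called 2 members, Mrps24 and Mrpl4, and 4.22% of all genes. Once a trend with transcript length and GC content was removed from every library, 6 members were higher and 9 lower at an unadjusted p under 0.05, where 5.91% and 6.09% of all genes were. The count of 12 also moved with single libraries. It was 3 without PBS replicate 4, 7 without PBS replicate 1, 6 without rFSTL1 replicate 2 and 5 without rFSTL1 replicate 3. These are 3.85%, 8.97%, 7.69% and 6.41% of the members, where 5.51%, 6.41%, 9.62% and 5.84% of all tested genes were higher in the same fits.

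The fitted changes of the members were small. Log2 fold changes of rFSTL1 over PBS ran from -0.14 (Mrpl1) to 0.33 (Mrps24), with a median of 0.039, and the median of all tested genes was 0.0058. In percent, these ends correspond to -9.32% and 25.7%. Standard errors of the log2 fold changes lay between 0.04 and 0.13, with a median of 0.06. In all, 57 members were within 0.1 of 0 on the log2 scale and 5 were above 0.2. The 95% interval included 0 for 66 of 78 members, and it lay inside -0.5 to 0.5 for 77, the exception being Mrps24 with an upper end of 0.52. Of the members, 55 were above 0 and 23 below, while 52% of all tested genes were above 0.

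**Figure D1:**
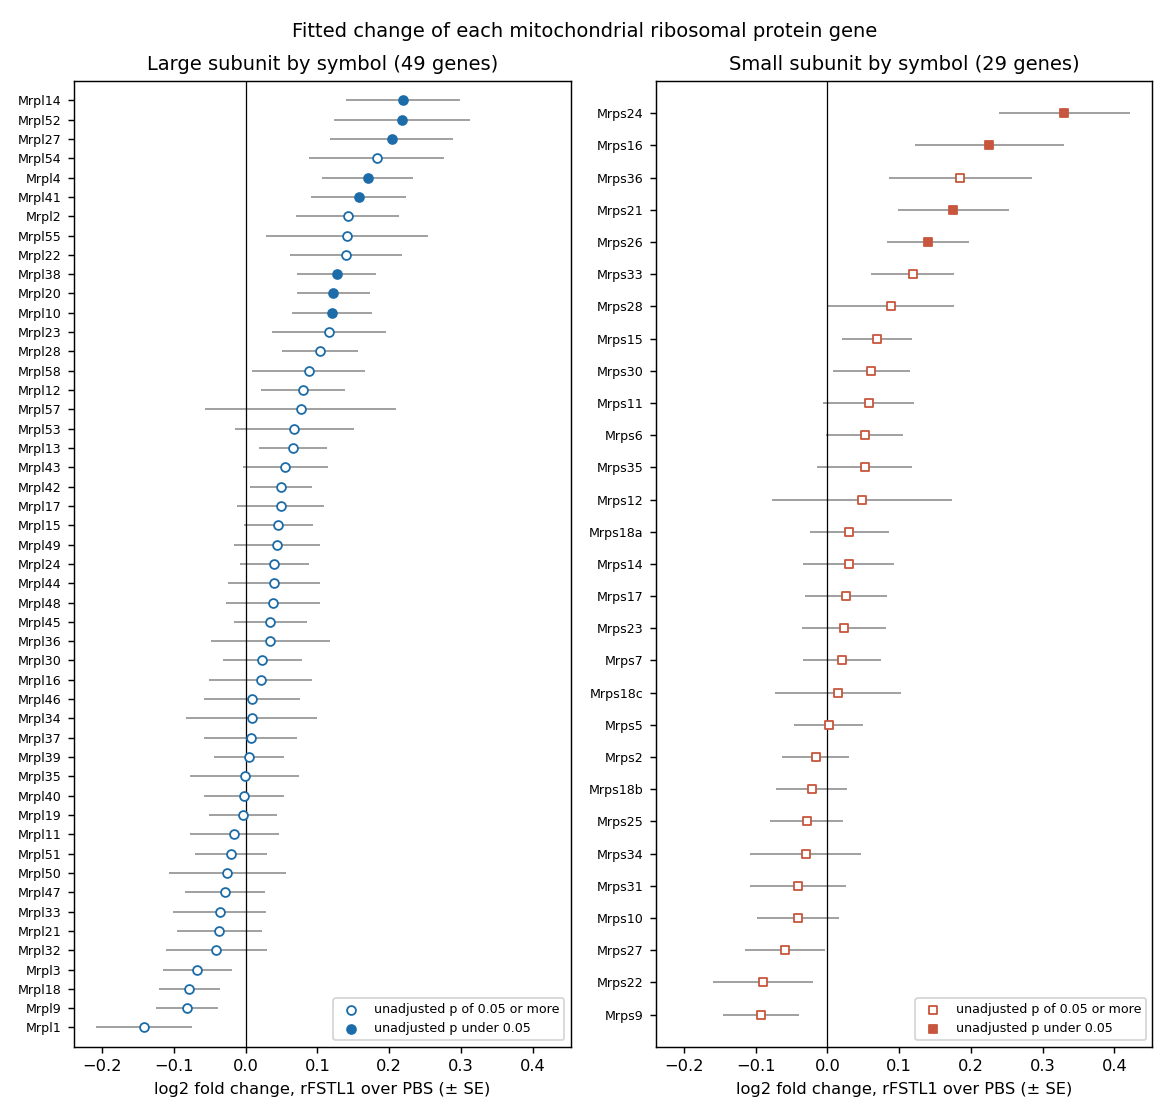
Fitted log2 fold change (x axis, rFSTL1 over PBS, bars ± SE) of each large-subunit (left, 49 genes) and small-subunit member (right, 29 genes), ordered by value, with filled symbols for an unadjusted edgeR p under 0.05. All 12 filled symbols lie to the right of 0, and no member had an adjusted p under 0.05.

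Levels varied little between libraries of a group. The median coefficient of variation of a member's CPM was 4.70% over the PBS libraries and 5.73% over the rFSTL1 libraries. Over all tested genes the medians were 5.37% and 7.44%. The rFSTL1 libraries did not order the members in 1 way. Of the rFSTL1 libraries, replicate 2 was the highest for 31 members and the lowest for 25, and replicate 4 was the highest for 23 and the lowest for 26. In 20 members replicate 2 was the highest and replicate 4 the lowest, and in 12 the reverse held. PBS replicate 4 was the lowest PBS library for 33 members.

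Of the 12, 4 belong to the small subunit. Mrps24 (ENSMUSG00000020477), a protein at the entry of the messenger RNA channel, was at 19.1, 18.5, 21.8 and 18.0 CPM in PBS libraries 1 to 4. Under rFSTL1 it was at 21.0, 28.1, 24.6 and 23.6 CPM. rFSTL1 replicate 1 lay below PBS replicate 3, so the groups overlapped, and the other 3 rFSTL1 libraries were above every PBS library. The log2 fold change was 0.33 ± 0.09 (SE) with an adjusted p of 0.133. It was 0.25 without rFSTL1 replicate 2. The adjusted p was 0.0483 with DESeq2 and 0.0415 with limma voom.

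Mrps16 (ENSMUSG00000049960), an RNA-binding protein of the small-subunit body, was at 14.5, 17.2, 16.6 and 15.1 CPM under PBS and 15.4, 22.4, 17.7 and 18.7 CPM under rFSTL1. The fold change was 0.23 ± 0.10 on the log2 scale (adjusted p = 0.307). rFSTL1 replicate 2 stood above the other libraries, as it also did for Mrps21. Mrps21 (ENSMUSG00000054312), the counterpart of a small basic bacterial protein, was at 50.04, 46.9, 49.1 and 43.8 CPM under PBS and 51.9, 62.9, 53.4 and 46.7 CPM under rFSTL1. Mrps26 (ENSMUSG00000037740), a subunit found only in mitochondria, was at 61.9, 61.8, 68.6 and 61.4 CPM under PBS. Its rFSTL1 values were 67.5, 64.8, 73.6 and 73.7 CPM. The groups of both genes overlapped, and their log2 fold changes were 0.18 ± 0.08 and 0.14 ± 0.06.

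Other small-subunit members fell on either side of 0. Mrps33 (ENSMUSG00000029918), also specific to mitochondria and named here after its values were seen, was at 38.6, 39.2, 39.9 and 35.2 CPM under PBS and 41.3, 43.5, 41.5 and 40.0 CPM under rFSTL1. Its groups did not overlap, by a gap smaller than the spread within either group, and its adjusted p was 0.330. Mrps9 (ENSMUSG00000060679), whose tail reaches towards the tRNA sites, had the lowest fold change of the subunit. It was at 68.2, 68.6, 62.9 and 64.7 CPM under PBS and 64.8, 65.0, 59.3 and 59.1 CPM under rFSTL1 (log2 fold change -0.09 ± 0.05, adjusted p = 0.403). Mrps22 (ENSMUSG00000032459), a mitochondria-specific subunit, was at 51.0, 51.8, 53.5 and 56.6 CPM under PBS and 57.1, 44.6, 51.1 and 47.4 CPM under rFSTL1. Both overlapped between the groups.

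Of the 6 members listed for decoding and the mRNA path, Mrps24 was higher at an unadjusted p under 0.05 and none was lower. That is 16.7% of the list higher, beside 8.29% of all tested genes. The median log2 fold change of the list was 0.011, and -0.038 with the length and GC trend removed. The other five had log2 fold changes of 0.05 (Mrps12, at the decoding centre), 0.02 (Mrps7, at the tRNA exit site), 0.0016 (Mrps5, at the mRNA entry), -0.02 (Mrps2) and -0.09 (Mrps9). Mrps12 was the lowest of the small subunit in CPM, at 9.34 ± 1.38 under PBS and 9.64 ± 1.17 under rFSTL1 (SD, n = 4). The signs of Mrps12, Mrps7, Mrps5 and Mrps2 depended on the libraries or the tool used.

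The other 8 of the 12 belong to the large subunit. Mrpl14 (ENSMUSG00000023939), which sits at the face towards the small subunit, was at 14.6, 13.6, 14.0 and 14.9 CPM under PBS. Under rFSTL1 it was at 16.3, 15.6, 16.8 and 17.6 CPM. Every rFSTL1 library was above every PBS library. The log2 fold change was 0.22 ± 0.08 with an adjusted p of 0.212, the lowest of the large subunit. With the length and GC trend removed it was 0.032. The annotation places an exon of Tmem63b over at least 100 bases of its exons on the opposite strand. As the strand setting of the counting is not given in the sources used here, reads of the 2 genes may be shared. Of the 12, Mrpl10 has such an overlap too, of 240 bases with Gm11574. The counts of both members were whole in every library.

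Mrpl4 (ENSMUSG00000003299), a protein with a loop in the exit tunnel, was at 84.6, 81.4, 83.3 and 86.4 CPM under PBS and 89.3, 82.8, 99.6 and 105.3 CPM under rFSTL1. rFSTL1 replicates 3 and 4 were the highest, and replicate 2 lay within the PBS range. The log2 fold change was 0.17 ± 0.06 (adjusted p = 0.226), and the adjusted p was 0.0471 with limma voom. Mrpl27 (ENSMUSG00000024414), which lies near the peptidyl transferase centre, was at 15.6, 18.9, 15.2 and 16.2 CPM under PBS and 20.1, 19.4, 18.5 and 18.0 CPM under rFSTL1. Mrpl41 (ENSMUSG00000036850), specific to mitochondria, was at 27.7, 28.0, 28.2 and 25.2 CPM under PBS. Its rFSTL1 values were 27.9, 31.2, 31.97 and 30.6 CPM. Mrpl20 (ENSMUSG00000029066), an early-binding protein in the bacterial subunit, was at 66.9, 67.2, 69.6 and 60.5 CPM under PBS and 69.3, 72.2, 72.0 and 74.2 CPM under rFSTL1. In each of these 3 genes 1 library of a group crossed into the other group's range, and the log2 fold changes were 0.20 ± 0.09, 0.16 ± 0.07 and 0.12 ± 0.05.

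Mrpl52 (ENSMUSG00000010406), named after its values were seen, was at 32.3, 34.2, 30.5 and 26.1 CPM under PBS and 33.1, 43.3, 34.2 and 33.0 CPM under rFSTL1. Only rFSTL1 replicate 2 stood well above the PBS range (log2 fold change 0.22 ± 0.09). The remaining members of the 12 were Mrpl38 (0.13 ± 0.06) and Mrpl10 (0.12 ± 0.06). At the other end, Mrpl1 (ENSMUSG00000029486), the protein of the mobile stalk by the tRNA exit, was at 45.7, 45.8, 42.8 and 43.6 CPM under PBS. Its rFSTL1 values were 41.9, 44.1, 40.3 and 35.3 CPM, with replicate 4 the lowest and replicate 2 inside the PBS range. The log2 fold change was -0.14 ± 0.07 (adjusted p = 0.316), and it was -0.08 without rFSTL1 replicate 4. Mrpl9 (ENSMUSG00000028140) was at 93.6 to 98.7 CPM under PBS and 88.2 to 94.7 CPM under rFSTL1, and its log2 fold change was -0.08 ± 0.04.

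**Figure D2:**
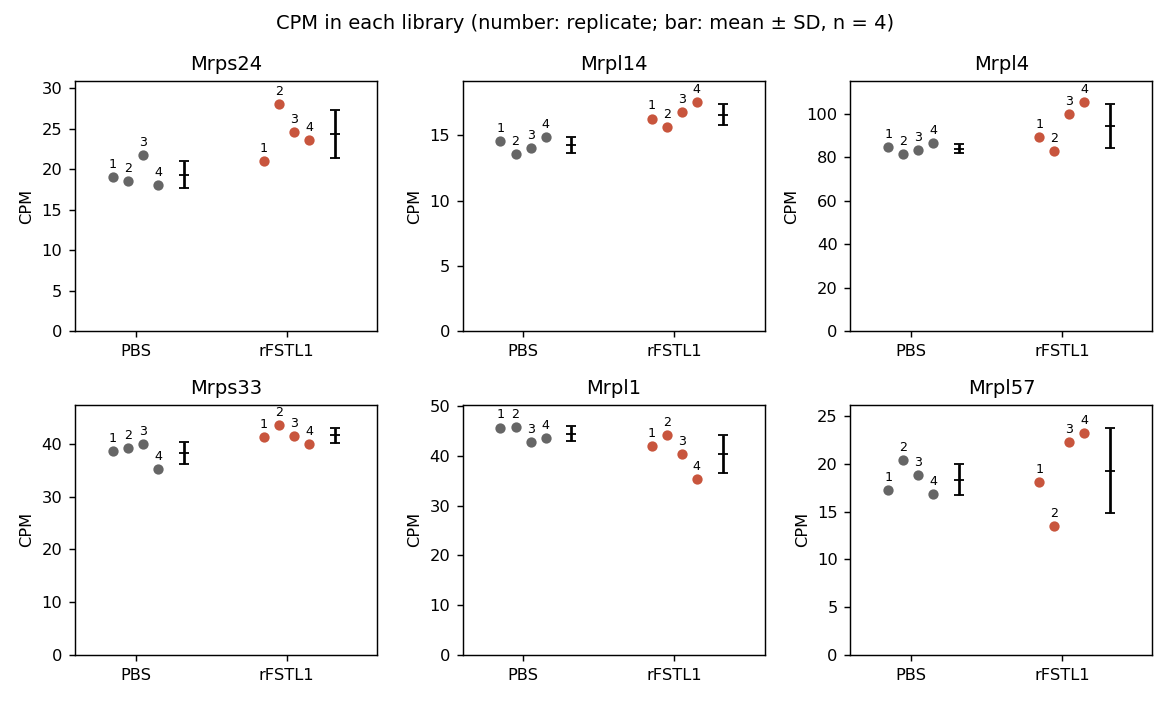
CPM (y axis, from 0) of 6 members in each PBS and rFSTL1 library, with the replicate number beside each point and the mean ± SD (n = 4) as a bar. Mrpl14 and Mrps33 show no overlap between the groups, Mrps24 overlaps through rFSTL1 replicate 1, and Mrpl57 spreads from 13.5 to 23.3 CPM within rFSTL1.

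The groups of 2 members did not overlap with rFSTL1 higher, Mrpl14 and Mrps33, which is 2.56% of members beside 4.63% of all tested genes. No member had every rFSTL1 library below every PBS library, where 3.53% of tested genes did. The count of 2 was 7 without PBS replicate 2, 5 without PBS replicate 3, 1 without PBS replicate 4, 9 without rFSTL1 replicate 1 and 5 without rFSTL1 replicate 4. With 7 libraries, fewer values must separate for any gene, and the shares of all tested genes in those fits were 5.95%, 6.46%, 5.35%, 8.23% and 5.89%, beside 8.97%, 6.41%, 1.28%, 11.5% and 6.41% of the members. Mrpl57, specific to mitochondria, had the largest coefficient of variation of all members under rFSTL1. It was at 17.2, 20.4, 18.8 and 16.9 CPM under PBS and 18.1, 13.5, 22.3 and 23.3 CPM under rFSTL1.

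The functional parts of the large subunit were described by lists. The stalk that receives the translation factors (5 members) had a median log2 fold change of 0.080, which was -0.016 with the length and GC trend removed. At an unadjusted p under 0.05, 1 of its members was higher, Mrpl10 (20%, beside 8.29% of all tested genes). Mrpl54 was at 21.5, 20.3, 21.5 and 22.8 CPM under PBS and 19.0, 25.4, 26.1 and 26.6 CPM under rFSTL1. Its rFSTL1 replicate 1 was the lowest library of all and the other 3 were the highest. Mrpl12, a stalk protein known also to bind the mitochondrial RNA polymerase, was at 112 ± 3.27 CPM under PBS and 118 ± 11.2 CPM under rFSTL1 (SD, n = 4). Mrpl53 and Mrpl11 had log2 fold changes of 0.07 and -0.02.

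The exit tunnel list held 6 members and left out Mrpl4, which also reaches into the tunnel. Its median log2 fold change was 0.04, and none of these 6 was past an unadjusted p of 0.05 in either direction. They were Mrpl22 (0.14), Mrpl23 (0.12), Mrpl24 (0.04), Mrpl44 (0.04), Mrpl45 (0.03) and Mrpl47 (-0.03). Mrpl45, which helps to hold the mitoribosome at the inner membrane, was at 77.1, 74.4, 74.0 and 79.3 CPM under PBS and 76.1, 83.1, 80.3 and 72.6 CPM under rFSTL1. The rFSTL1 range held the whole PBS range. Of the 6 central protuberance members, Mrpl27 and Mrpl38 were higher at an unadjusted p under 0.05 (33.3%, beside 8.29% of all tested genes). The median log2 fold change of the list was 0.024, or -0.029 with the trend removed. Mrpl18 of the same list, the highest member in CPM under PBS, was at 113 ± 2.71 CPM under PBS and 108 ± 3.60 CPM under rFSTL1 (SD, n = 4). Mrpl40, Mrpl46 and Mrpl48 had log2 fold changes of -0.0022, 0.01 and 0.04.

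Members with a bacterial counterpart and those specific to mitochondria were also set side by side. In the large subunit, 5 of 30 members with a counterpart and 3 of 19 specific members were higher at an unadjusted p under 0.05. Their median log2 fold changes were 0.037 and 0.043. In the small subunit the counts were 3 of 17 and 1 of 9, and the medians 0.029 and -0.029. These counts are 16.7%, 15.8%, 17.6% and 11.1% of the 4 classes, beside 8.29% of all tested genes. With the length and GC trend removed the medians were 0.0071, 0.0063, -0.039 and -0.015, so the order of the small-subunit classes turned. The 3 remaining members carry a small-subunit symbol but their proteins are placed elsewhere. Mrps30 and Mrps18a are now assigned to the large subunit, and Mrps36 to the 2-oxoglutarate dehydrogenase complex. Mrps30 was at 50.8 ± 2.76 CPM under PBS and 53.0 ± 1.57 CPM under rFSTL1, and Mrps18a at 46.0 ± 1.84 and 47.0 ± 2.06 CPM (SD, n = 4). Mrps36 was at 20.9, 20.4, 20.3 and 21.2 CPM under PBS and 21.4, 29.4, 23.4 and 20.1 CPM under rFSTL1, with replicate 2 above all other libraries.

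The second comparison set the large against the small subunit in each library. The CPM of the 49 large-subunit members summed to 2455, 2460, 2382 and 2369 under PBS and to 2437, 2481, 2501 and 2487 under rFSTL1. The means were 2416 ± 47.8 and 2476 ± 27.6 (SD, n = 4), a difference of 2.49%. The groups overlapped. The small-subunit sums were 1369, 1372, 1362 and 1371 under PBS and 1385, 1416, 1414 and 1375 under rFSTL1. The means were 1369 ± 4.22 and 1398 ± 20.5, a difference of 2.12%, and the lowest rFSTL1 sum lay just above the highest PBS sum. All members together took 0.375% to 0.383% of the counts under PBS and 0.380% to 0.394% under rFSTL1.

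The ratio of the large-subunit sum to the small-subunit sum was 1.79, 1.79, 1.75 and 1.73 under PBS and 1.76, 1.75, 1.77 and 1.81 under rFSTL1. Its means were 1.77 ± 0.033 and 1.77 ± 0.025 (SD, n = 4). On the log2 scale the ratio differed by 0.0054 between the groups, less than its SD of 0.024 between libraries of a group. With subunits assigned by structure, the difference was 0.017. In that assignment Mrps30, Mrps18a and Gadd45gip1 counted as large, Dap3, Ptcd3, Chchd1 and Aurkaip1 as small, and Mrps36 was left out. The median log2 fold change was 0.040 for the large-subunit members and 0.029 for the small-subunit members. At an unadjusted p under 0.05, 16.3% of the large-subunit and 13.8% of the small-subunit members were higher, beside 8.29% of all tested genes. With the length and GC trend removed, 0 of 49 and 6 of 29 were, beside 5.91% of all genes in that fit. The 6 include Mrps30, assigned to the large subunit by structure. The small-subunit median was 0.0053 without rFSTL1 replicate 2.

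**Figure D3:**
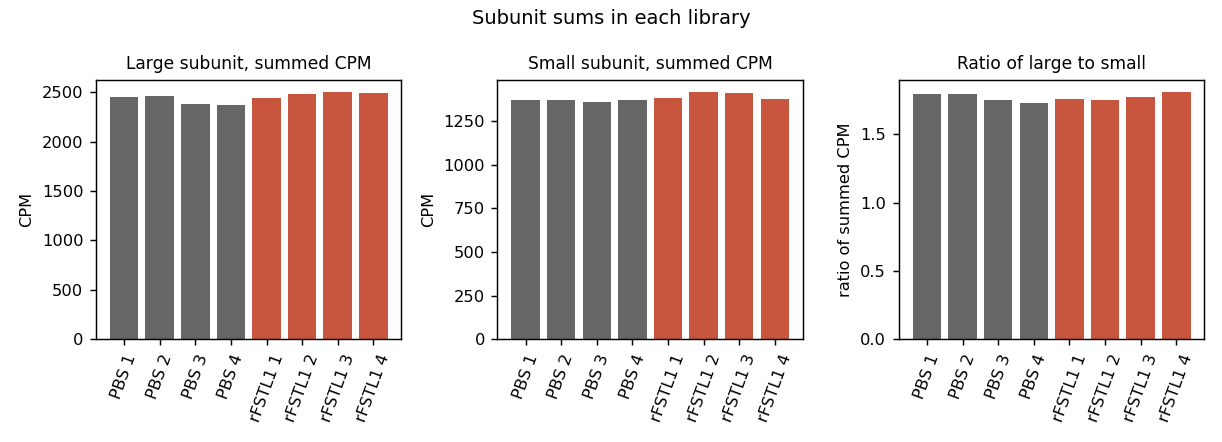
Summed CPM of the large-subunit (left) and small-subunit members (middle) and their ratio (right) in each of the 8 libraries, grey for PBS and red for rFSTL1, with y axes from 0. The ratio lies between 1.73 and 1.81 in every library, with no separation of the groups.

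The members' fold changes went with transcript length. The length used was that of the longest protein-coding transcript in the GENCODE vM21 annotation, with a median of 1328 bases in the members and 3116 bases in all tested genes. Across the 78 members, the log2 fold change and log2 length had Pearson's r = -0.38 and Spearman's rho = -0.40. Across the 10719 tested genes with a length, these were -0.23 and -0.28. Genes of 1 library set share its depth and base composition and are not independent replicates. GC content was related to the fold change as well, with r = 0.42 and rho = 0.40 in the members and r = 0.41 and rho = 0.54 in all tested genes. The median GC content was 50.01% in the members and 49.9% in all tested genes.

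Split at 1000 bases, 24 members were shorter and 54 were not. Of the shorter members, 7 (29.2%) were higher at an unadjusted p under 0.05, beside 31.9% of all tested genes under 1000 bases. Their median log2 fold change was 0.10, and that of all tested genes under 1000 bases was 0.11. Of the longer members, 5 (9.26%) were higher, beside 7.07% of all tested genes of that length, with medians of 0.022 and 0.0013. Within each length class the members thus had a share near that of the other genes. With the length and GC trend removed, the median log2 fold change was 0.0068 for the large-subunit and -0.027 for the small-subunit members. In that fit 5.91% of all genes were higher and 6.09% lower at an unadjusted p under 0.05. Of the large-subunit members 0 were then higher and 5 lower, and of the small-subunit members 6 were higher and 4 lower. The lower ones, named after their values were seen, were Mrpl18 (-0.13), Mrpl9 (-0.08), Mrpl21 (-0.12), Mrpl33 (-0.16), Mrpl34 (-0.18), Mrps34 (-0.19), Mrps9 (-0.13), Mrps10 (-0.11) and Mrps18b (-0.10), of which Mrpl18 had the smallest p of all members in that fit. Of the 12 members higher in the fit without trend removal, 3 kept an unadjusted p under 0.05, Mrps16 (0.24), Mrps24 (0.22) and Mrps26 (0.14), and 9 did not. The other three higher ones in that fit were Mrps14 (0.14), Mrps30 (0.11) and Mrps33 (0.12). The log2 fold changes of those 9 were then 0.10 (Mrpl27), 0.07 (Mrpl10), 0.047 (Mrpl41), 0.044 (Mrpl4), 0.032 (Mrpl14), 0.011 (Mrpl38), 0.0074 (Mrpl20), -0.0045 (Mrpl52) and -0.00015 (Mrps21). The sign differed between the fits for 29 of the 78 members.

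**Figure D4:**
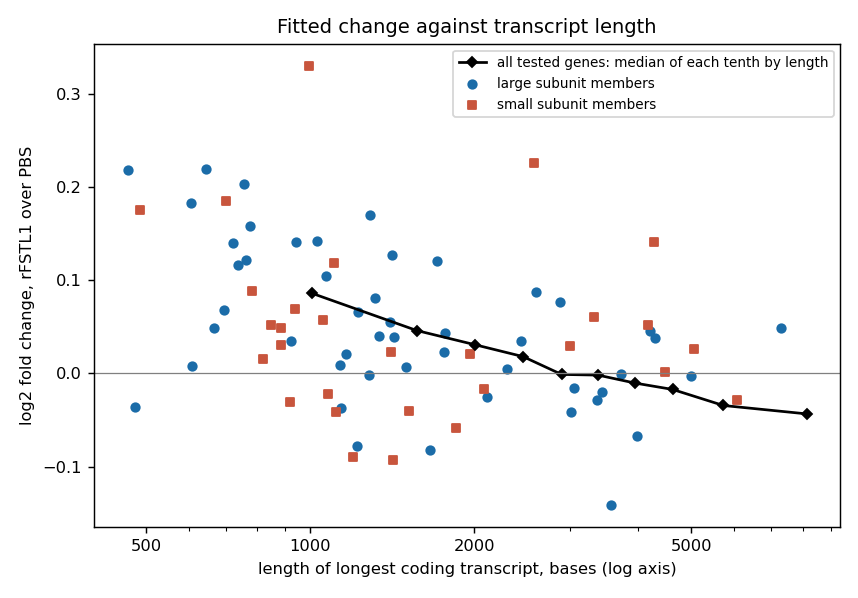
Fitted log2 fold change (y axis, rFSTL1 over PBS) of each member against the length of its longest coding transcript in bases (x axis, log scale), with a black line through the medians of all tested genes in 10 equal groups by length. The black line descends from 0.09 in the shortest group to -0.04 in the longest, and the members scatter around it, with Mrps24 the highest at 0.33.

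The cytosolic ribosomal protein genes, which encode the other ribosome of the cell, served as the gene group for comparison and have shorter transcripts still. Of their 80 tested genes, 43 (53.8%) were higher at an unadjusted p under 0.05 and 0 lower, with a median log2 fold change of 0.11. Of all tested genes 8.29% were higher and 7.56% lower. The cytosolic median length was 941.5 bases, and 31.9% of all tested genes under 1000 bases were higher. None of the 80 had an adjusted p under 0.05 in edgeR. DESeq2 called 15 and limma voom 25, beside 2.49% of the genes with a DESeq2 adjusted p and 4.22% of all genes. As the per-library median deviation from the PBS mean, the cytosolic genes were at 0.02, 0.18, 0.16 and 0.10 (log2) under rFSTL1. The large-subunit mitochondrial members were at 0.01, 0.04, 0.07 and 0.06 and the small-subunit members at 0.01, 0.00, 0.06 and 0.01. Under PBS the cytosolic genes were at 0.05, 0.003, -0.01 and -0.03. The large-subunit members were there at 0.03, 0.04, -0.02 and -0.03, and the small-subunit members at 0.009, 0.002, 0.008 and -0.01. The groups overlapped in each list. With the trend removed, the cytosolic median was 0.034, and 21 of 80 were higher and 4 lower at an unadjusted p under 0.05, beside 5.91% and 6.09% of all genes.

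Levels of different members were compared per length, as TPM (counts divided by transcript length and scaled to the library) on the longest coding transcript. Under PBS the members ran from 14.3 to 309 TPM, with a median of 69.3, and all tested genes had a median of 27.5. The median was 70.0 TPM for large-subunit and 68.6 TPM for small-subunit members. Mrpl42, specific to mitochondria, was the highest at 309 ± 3.67 TPM under PBS and 315 ± 16.3 TPM under rFSTL1 (SD, n = 4). It was followed by Mrps6 (236 TPM under PBS), Mrps21 (226 TPM), Mrpl18 (216 TPM), Mrps15 (202 TPM) and Mrpl20 (201 TPM). Mrps6 and Mrps21 differed by less than their SDs of 10.9 and 12.4 TPM, as did Mrps15 and Mrpl20. At the lower end were Mrps16 (14.3 TPM), Mrpl57 (14.8 TPM), Mrps35 (18.0 TPM) and Mrpl17 (19.1 TPM). Mrps16 and Mrpl57 also differed by less than their SDs. A shorter transcript than the one used would give a higher value, so these levels depend on the annotation. Counts of 11 members were not whole in at least 1 library, and these members may share reads with other genes.

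**Figure D5:**
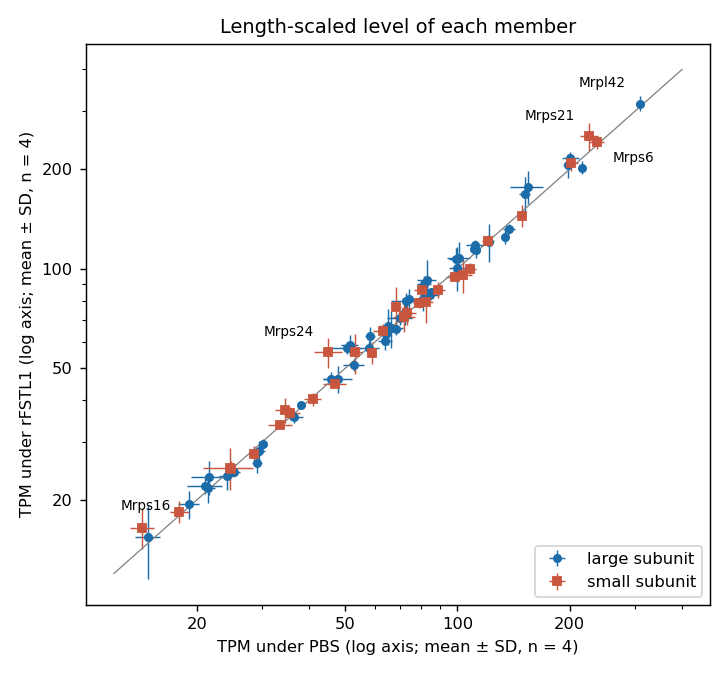
TPM of each member under rFSTL1 (y axis) against PBS (x axis), both log axes, as means ± SD of 4 libraries, with the grey line marking equal levels. The members follow the line from 14.3 to 309 TPM, with Mrps24 above it.

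The arrangement of the genes was described as well. The transcript start lay within 1000 bases of the start of a divergent protein-coding gene in 23 of 78 members (29.5%), 16 of the large and 7 of the small subunit. This held for 14.8% of the 10685 tested protein-coding genes. Of the divergent partners 22 were tested, and 0 had an adjusted p under 0.05 in edgeR. Mrps12 lies 172 bases from Sars2, a mitochondrial seryl-tRNA synthetase, with log2 fold changes of 0.05 and -0.10. Mrpl54 and its partner Apba3 were at 0.18 and 0.20. Mrpl36 and Ndufs6, a complex I subunit, were at 0.03 and 0.25 ± 0.07. Mrpl49 and Fau, which encodes a cytosolic ribosomal protein, were at 0.04 and 0.13. Mrpl50 and its partner Zfp189 were at -0.03 and -0.22. Of the 22 pairs, 12 had the same sign. These pairs were picked for the function or values of the partner, after the values were seen. Promoters with an ETS core belonged to 26 members, with a median log2 fold change of 0.04, and the 43 without one had a median of 0.03. Of these, 5 of 26 and 5 of 43 were higher at an unadjusted p under 0.05, beside 8.29% of all tested genes.

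The rest of the mitochondrial translation pathway was described from lists. Within these lists 0 genes had an adjusted p under 0.05 with edgeR, or with DESeq2 where it gave one, and 1, Fastkd5, did with limma voom. The 5 mitoribosomal subunits without an Mrpl or Mrps symbol had a median log2 fold change of 0.033, or -0.025 with the length and GC trend removed. Gadd45gip1 of the large subunit was at 23.1, 23.3, 26.0 and 22.997 CPM under PBS and 24.9, 26.8, 27.8 and 28.1 CPM under rFSTL1 (0.17 ± 0.07, adjusted p = 0.251). Dap3, a GTP-binding small-subunit protein, Chchd1 and Aurkaip1 were at 0.03, 0.08 and 0.03, and Ptcd3 at -0.08. At an unadjusted p under 0.05, 8.29% of all tested genes were higher and 7.56% lower. Of 15 mitochondrial translation factors, 1 was higher (6.67%) and 2 were lower (13.3%) at that threshold. The elongation factor gene Tufm was at 115 ± 3.78 CPM under PBS and 124 ± 6.85 CPM under rFSTL1, and Guf1, a translational GTPase, at 79.3 ± 3.71 and 73.6 ± 1.995 CPM (SD, n = 4).

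Of 29 assembly and rRNA-modifying factors, 1 was higher and 1 lower at an unadjusted p under 0.05. These are 3.45% each, beside 8.29% and 7.56% of all tested genes. Gtpbp6 was at 5.30 ± 0.83 CPM under PBS and 7.35 ± 1.63 CPM under rFSTL1, and Gtpbp10 at 25.3 ± 1.20 and 21.8 ± 1.93 CPM (SD, n = 4). Both encode GTPases that act on the large subunit. Among 20 mitochondrial aminoacyl-tRNA synthetase and amidotransferase genes, 1 was higher (5%), Gatc (0.23 ± 0.08), and 0 lower. The shares of all tested genes are again 8.29% and 7.56%. Mars2 had the next smallest p of this list, at a log2 fold change of -0.10. Of 22 genes for the expression of mitochondrial DNA, 1 was higher (Slirp) and 4 were lower (18.2%, beside 7.56% of all tested genes), with a median log2 fold change of -0.06. In 4 of the 22 every rFSTL1 library was below every PBS library (Lrpprc, Fastkd5, Tfam and Tefm, the last 2 named after their values were seen), beside 3.53% of all tested genes, and in 1, Slirp, every one was above, beside 4.63%. With the length and GC trend removed, the median of the 22 was also -0.06. In that fit 1 was higher and 4 lower at an unadjusted p under 0.05, beside 5.91% and 6.09% of all genes. Lrpprc, which stabilises mitochondrial messenger RNAs, was at 173, 178, 178 and 183 CPM under PBS and 165, 161, 168 and 163 CPM under rFSTL1. Its adjusted p was 0.191. Fastkd5, an RNA-processing factor, was at 38.1 ± 1.15 and 33.7 ± 2.04 CPM (SD, n = 4).

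The templates of the mitoribosome, the 13 mitochondrially encoded protein genes, took 5.92%, 6.51%, 6.10% and 6.07% of the counts under PBS. Under rFSTL1 they took 6.19%, 6.50%, 5.41% and 4.87%, so that replicates 3 and 4 were below every PBS library and replicates 1 and 2 were not. Their median log2 fold change was -0.080, with 0 higher and 1 lower (mt-Co2, -0.20 ± 0.09) at an unadjusted p under 0.05, and mt-Nd1 was at -0.16. Of all tested genes 8.29% were higher and 7.56% lower. The median of the 13 was -0.017 with the length and GC trend removed. In that fit 1 was higher and 3 lower, beside 5.91% and 6.09% of all genes. Of the nuclear regulators of mitochondrial gene expression, 10 of 11 were tested. Without trend removal, 1 was higher and 1 lower (10% each), beside 8.29% and 7.56% of all tested genes. Myc was at 2.18 ± 0.29 CPM under PBS and 3.26 ± 0.95 CPM under rFSTL1, and Gabpa, which encodes the DNA-binding subunit of GABP, at 123 ± 9.35 and 113 ± 7.52 CPM (SD, n = 4).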

How the data were processed

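Polyadenylated RNA of 8 RAW264.7 libraries was sequenced (NEBNext Ultra kit, Illumina NovaSeq). The submitters' processing notes name HISAT2, Bowtie2 2.2.8, StringTie 1.3.1 and DESeq2. The genome build and the counting step are not given in the sources used here. The authors deposited expected counts (estimated counts) per gene, unnormalized, of which 13.0% of the nonzero values were not whole. They were rounded here, where whole counts had been planned for, and the same count test was kept. Groups and replicate numbers came from the labels. Genes were filtered with filterByExpr (minimum count 10), scaled by TMM and compared with edgeR 4.0.16 (quasi-likelihood test, R 4.3.3) over all genes, with Benjamini-Hochberg adjustment at 0.05. limma 3.58.1 and DESeq2 1.42.0 were alternatives, as were other scalings, no filter, a replicate block, subtracting splines of transcript length and GC content (4 degrees of freedom each) and leaving out each library. The scripts were tested on simulated data. Subunit sums, ratios, lists and sequences were described without tests.

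The members and gene lists were chosen with earlier results of these data known. Named members were, in each subunit, up to 5 with the smallest unadjusted p in each direction (at least 2), the 3 highest and 2 lowest per length, the role lists and the 3 members placed elsewhere. The 5 other subunits were named, and up to 2 genes of every other list. Intervals cover 95%. Promoter sequences are from RefSeq (GRCm38.p6), and gene arrangement is from GENCODE vM21 on the same assembly version.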

Additional observations from a re-analysis of the deposited data

Results flagged for a closer look

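In 5 of the 92 groups of 4 libraries examined, 1 library lay far from the other 3 (Dixon's test at 95%), and chance alone gives about 4.6. Mrpl10 was at 45.4 CPM in PBS replicate 2 beside 41.9 to 42.4 in the other PBS libraries. Mrpl41 was at 25.2 CPM in PBS replicate 4 beside 27.7 to 28.2, and Mrps35 at 29.0 CPM in the same library beside 33.1 to 33.5. Mrps26 was at 68.6 CPM in PBS replicate 3 beside 61.4 to 61.9. Mrpl54 was at 19.0 CPM in rFSTL1 replicate 1 beside 25.4 to 26.6 in the other rFSTL1 libraries.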

How the results depend on the processing

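The count of members with an adjusted p under 0.05 was 0 in edgeR under every scaling, filter, block and left-out library, 1 with DESeq2 (Mrps24, adjusted p 0.0483) and 2 with limma voom (Mrps24, adjusted p 0.0415, and Mrpl4, adjusted p 0.0471). Over the 8 fits without 1 library, the adjusted p of Mrps24 was 0.060 to 0.338. The count higher at an unadjusted p under 0.05 was 12, and 6 with the length and GC trend removed, 5 with the replicate block added to that, and 3 to 12 with 1 library left out, where 5.91%, 5.75% and 5.51% to 9.62% of all genes were. The count lower was 0, and 1 with library totals, 1 without the filter, 2 with limma voom and 1 with the replicate block, where 7.84%, 6.9%, 11.9% and 7.65% of all genes were. It was 9 with the trend removed, 8 with trend removal and the block, and 0 to 4 with 1 library left out, where 6.09%, 5.81% and 4.39% to 11.8% were. The block moved no other count of calls by over 1.5 times. Its pairing was not supported by the deviations of same-numbered libraries, whose correlations were -0.071, 0.055, -0.009 and -0.003. The large-subunit median log2 fold change was 0.0068 with the trend removed, 0.0063 with the block as well and 0.027 to 0.045 with 1 library left out. The small-subunit median was -0.027, -0.028 and 0.0053 to 0.040 in these fits. The members above every PBS library numbered 1 with DESeq2's size factors, 5 with upper-quartile factors, 1 without the filter, 0 with the trend removed, 0 with the block added and 1 to 9 with 1 library left out. The shares of all genes in these fits were 4.37%, 5.26%, 3.57%, 3.22%, 3.22% and 5.35% to 8.23%. Those below every PBS library numbered 3 with the trend removed, 3 with the block added and 0 to 3 with 1 library left out, beside 3.56%, 3.56% and 4.32% to 7.81% of all genes. The difference of the log2 ratio of the subunits was -0.0049 to 0.013 with 1 library left out.

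Among named members, the log2 fold change of Mrpl40 was 0.0087 with upper-quartile factors, that of Mrps2 was 0.015 with limma voom, and that of Mrps5 was -0.0035 with DESeq2, -0.0039 without the filter and -0.015 with limma voom, each opposite to the reported sign. Outside the left-out libraries and the trend removal, 244 of the values for named members kept direction and side of the threshold, 5 reversed and 3 passed the threshold. Trend removal for single named members was chosen after seeing the data. It left 59 values with their direction and side of the threshold and reversed 25, over the fits without and with the replicate block. In that order these were -0.016 and -0.019 for Mrpl12, -0.025 and -0.030 for Mrpl42, -0.015 and -0.013 for Mrpl44, -0.069 and -0.066 for Mrpl46, 0.0073 and 0.0062 for Mrpl47, -0.070 and -0.076 for Mrpl53, -0.024 and -0.030 for Mrpl54, -0.086 and -0.086 for Mrps12, -0.039 and -0.040 for Mrps15, -0.10 and -0.10 for Mrps18a, -0.066 and -0.066 for Mrps6 and -0.050 and -0.050 for Mrps7, and Mrps21 was at -0.00015 without the block only. With 1 library left out, 315 kept both and 21 reversed. The ranges of those that reversed in these fits were -0.069 to 0.014 (Mrpl11), -0.045 to 0.026 (Mrpl40), -0.0040 to 0.069 (Mrpl45), -0.030 to 0.036 (Mrpl46), -0.022 to 0.071 (Mrpl48), -0.0013 to 0.098 (Mrpl53), -0.027 to 0.20 (Mrpl57), -0.044 to 0.12 (Mrps12), -0.034 to 0.019 (Mrps5) and -0.011 to 0.041 (Mrps7). The cause was not tested. Standard errors of 0.04 to 0.13 limit what these libraries can resolve.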
